A study of Mus musculus with 10 samples.

Results

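The genes of bile acid synthesis and its control by the farnesoid X receptor (FXR) were followed in mouse liver, as 10 genes taken by symbol from the 55291 genes of the count table: Nr1h4, Nr0b2, Cyp7a1, Cyp8b1, Cyp27a1, Cyp7b1, Acox2, Amacr, Slc27a5 and Baat. All 10 passed the filter on low counts, which left 17015 genes for testing. Livers came from female Cas9 Lox-Stop-Lox mice aged 16 to 20 weeks, and the 10 livers were assumed from their replicate numbers to be separate mice. Every mouse, controls included, received by tail vein an AAV8 vector that carries a guide RNA and Cre under the hepatocyte-specific TBG promoter, so that Cas9 was switched on only in hepatocytes that took up the vector. The guide was either non-targeting (NTC) or directed at Bap1 (sgBap1), the gene of a nuclear deubiquitinase and tumor suppressor. On day 10 the mice were injected intraperitoneally with carbon tetrachloride (CCl4, 1 part to 9 parts of olive oil, 10 µL per g of body weight) or with olive oil (Veh), and the livers were taken 48 h later. The groups were NTC-Veh (n = 2), sgBap1-Veh (n = 2), NTC-CCl4 (n = 3) and sgBap1-CCl4 (n = 3). The comparisons ask how these genes differ after CCl4 injury, and whether the Bap1 guide changes their level or their difference after CCl4.

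Hepatocytes turn cholesterol into bile acids by a classical route, opened by the 7 alpha-hydroxylase Cyp7a1, and an alternative route, opened by the sterol 27-hydroxylase Cyp27a1. The sterol 12 alpha-hydroxylase Cyp8b1 directs the product towards cholic acid, peroxisomal enzymes shorten the side chain, and a ligase and a transferase join the bile acid to taurine or glycine. Bile acids bind FXR, which induces the repressor SHP (Nr0b2), and SHP lowers Cyp7a1 and Cyp8b1 transcription. CCl4 is made reactive by Cyp2e1, an enzyme of the hepatocytes around the central vein, where Cyp7a1 is also mainly expressed.

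The level of most of these genes was lower 48 h after CCl4, with either guide. In NTC-CCl4 against NTC-Veh livers, 7 of the 10 genes fell and none rose (edgeR's quasi-likelihood test, adjusted p under 0.05 over all tested genes), where 26.6% of all tested genes were called lower. In sgBap1-CCl4 against sgBap1-Veh livers, 8 of 10 fell, where 28.0% of all tested genes were called lower. The median log2 fold change of the 10 genes was −2.11 with the control guide and −2.35 with the Bap1 guide, while the median of all tested genes was 0.03 and 0.04. The livers of the groups did not overlap for 8 and 9 of the 10 genes, all in the lower direction, against 71.7% and 72.2% of all tested genes in either direction. The gene that differed most was Cyp7a1, and the FXR-induced repressor gene Nr0b2 and the oxidase gene Acox2 were not called in either comparison. Since these are bulk samples, fewer cells of a type and less RNA per cell cannot be told apart in any of these values.

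**Figure D1:**
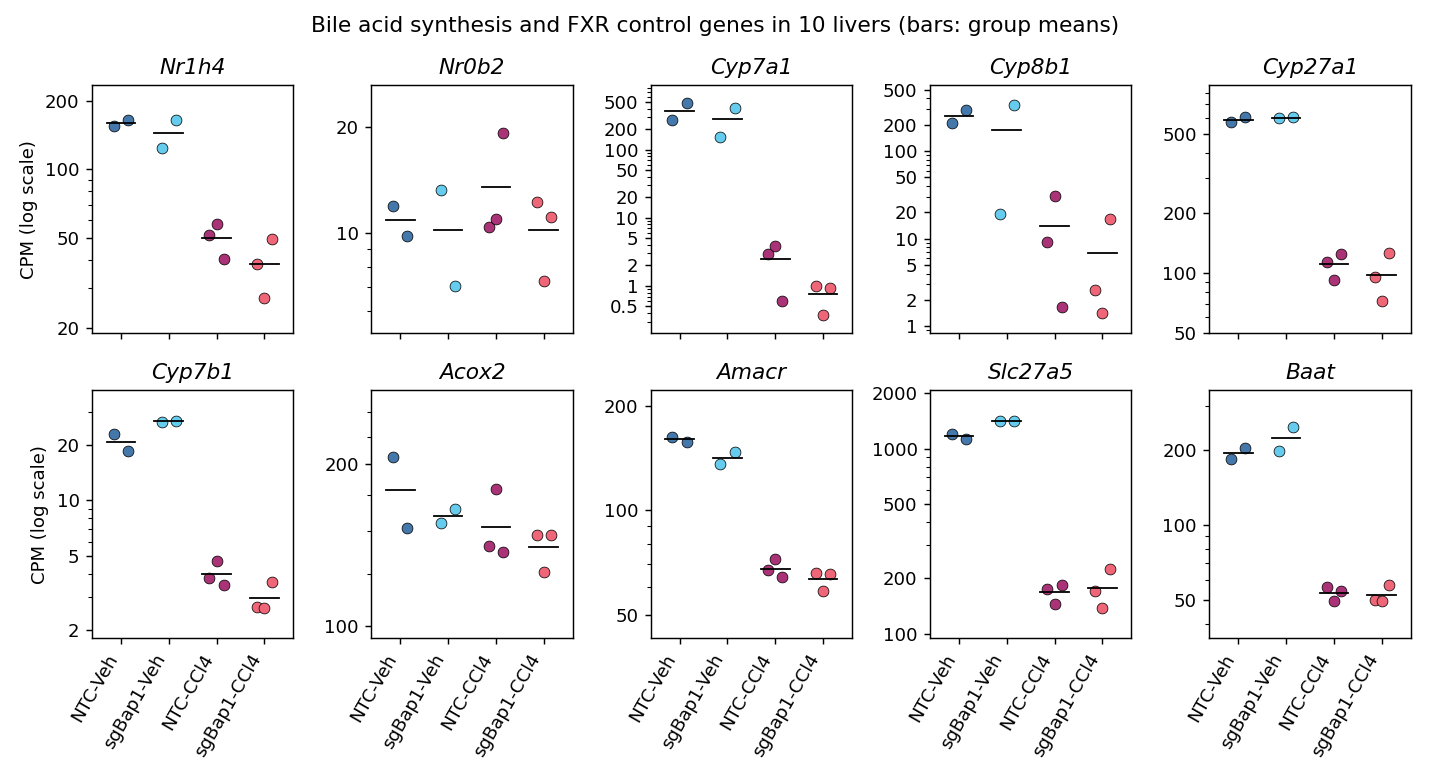
Levels (CPM, counts scaled to a library of 1000000, log scale, a separate range for each gene) of the 10 genes in each liver, by group (points: livers; bars: group means). Points of the CCl4 groups lie below those of both vehicle groups for 7 genes, while Nr0b2, Cyp8b1 and Acox2 have CCl4 livers within the range of the vehicle livers.

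The total count of a library was 33047904 to 52199904, so that 3 counts correspond to 0.0511 to 0.112 CPM. Levels are given below as CPM, the count scaled to a library of 1000000 counts after the total was multiplied by its TMM factor. These factors were 0.786 to 0.851 in the vehicle livers and 1.08 to 1.24 in the CCl4 livers. The Bap1 level was 34.8 and 34.8 CPM in the NTC-Veh livers, 17.5 and 19.5 CPM in the sgBap1-Veh livers, 29.5 to 31.5 CPM in the NTC-CCl4 livers and 17.0 to 21.8 CPM in the sgBap1-CCl4 livers. It was thus lower in every liver with the Bap1 guide, with a log2 fold change of −0.91 (adjusted p = 0.0208) in vehicle and −0.65 (adjusted p = 0.0295) in CCl4 livers. The liver sgBap1-CCl4 2 stood apart, since the summed level of 4 fat cell genes was 216 CPM in it and at most 0.0638 CPM in the other 9 livers. Hepatocyte markers (Alb, Ttr, Apoa1, Apob, Ahsg, Serpinc1) summed to 131760 to 164810 CPM in NTC-Veh and 113220 to 121480 CPM in sgBap1-Veh livers. Their sum was 84089 to 95801 CPM in NTC-CCl4 and 73686 to 96022 CPM in sgBap1-CCl4 livers.

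Promoter sequence was matched in RefSeq (mouse build GRCm38.p6, 250 bases before to 50 after the start site) for 5 of the 10 genes, Nr1h4, Nr0b2, Cyp8b1, Cyp27a1 and Acox2, and was not found in the table used for Cyp7a1, Cyp7b1, Baat, Slc27a5 and Amacr. The promoters of Nr0b2 and Cyp8b1 are shown because SHP, the product of Nr0b2, represses Cyp8b1, the levels of both are set side by side below, and each window holds a match to a nuclear receptor motif on its + strand. The capitals mark CAAGGCCA, a form of the site of the orphan receptor Nr5a2 (LRH-1), in Nr0b2 (chr4:133553126-133553425, + strand) at 201 bases before the start site, and CAAAGTCCA, the core of a site of Hnf4a, in Cyp8b1 (chr9:121916256-121916555, − strand) at 67 bases before it.
Nr0b2: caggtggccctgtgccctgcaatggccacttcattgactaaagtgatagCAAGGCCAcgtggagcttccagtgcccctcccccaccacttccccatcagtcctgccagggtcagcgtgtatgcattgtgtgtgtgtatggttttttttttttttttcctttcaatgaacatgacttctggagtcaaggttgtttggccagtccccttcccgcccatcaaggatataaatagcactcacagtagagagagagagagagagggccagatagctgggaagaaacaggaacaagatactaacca
Cyp8b1: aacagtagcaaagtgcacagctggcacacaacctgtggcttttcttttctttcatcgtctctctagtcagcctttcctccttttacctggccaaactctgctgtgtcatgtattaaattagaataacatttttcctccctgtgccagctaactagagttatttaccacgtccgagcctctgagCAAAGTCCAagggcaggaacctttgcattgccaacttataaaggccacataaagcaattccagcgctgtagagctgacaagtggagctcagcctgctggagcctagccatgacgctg
The search read both strands for 5 letter strings. CAAAGTCCA was found in 0.475% and CAAGGCCA in 2.4% of the 32851 promoter windows of 300 bases in the table. The string AGGTCA, a single nuclear receptor site that is also contained in CAAGGTCA, was found in 16.3% of windows and among the 5 genes only in Nr1h4, on the − strand at 214 bases before the start site. That start site is an internal one, since the window (chr10:89506609-89506908) lies inside the gene as positioned below. CAAGGTCA (1.56% of windows) and the inverted repeat AGGTCANTGACCT to which FXR binds (0.00913% of windows) had no match in the 5 genes. Cyp27a1 and Acox2, which has 2 windows in the table, had no match to any of the 5 strings. These matches describe letters in the windows and not bound sites.

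Nr1h4 (ENSMUSG00000047638.15, chr10:89454234-89533585, − strand, GRCm38) encodes FXR itself. Its level was 156 and 165 CPM in NTC-Veh livers, 124 and 165 CPM in sgBap1-Veh livers, 51.3, 57.6 and 40.5 CPM in NTC-CCl4 livers and 38.3, 27.1 and 49.3 CPM in sgBap1-CCl4 livers. Every CCl4 liver was below every vehicle liver. Nr1h4 fell 3.22-fold with the control guide (log2 fold change −1.69, SE 0.23, adjusted p = 0.000272) and 3.78-fold with the Bap1 guide (log2 fold change −1.92, SE 0.24, adjusted p = 0.000118). The guides did not differ detectably, with a log2 difference of −0.15 (95% interval −0.74 to 0.43) in vehicle and −0.38 (95% interval −0.86 to 0.10) in CCl4 livers.

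Nr0b2 (ENSMUSG00000037583.2, chr4:133553376-133556536, + strand), whose promoter is shown above, encodes SHP, the repressor that FXR induces. Its level was 11.9 and 9.81 CPM in NTC-Veh livers, 13.2 and 7.07 CPM in sgBap1-Veh livers, 10.4, 10.9 and 19.3 CPM in NTC-CCl4 livers and 12.2, 7.29 and 11.1 CPM in sgBap1-CCl4 livers. All 4 groups overlapped, and the highest level was that of NTC-CCl4 3. The log2 difference after CCl4 was 0.31 (95% interval −0.49 to 1.12, adjusted p = 0.489) with the control guide and 0.00 (95% interval −0.81 to 0.80, adjusted p = 0.997) with the Bap1 guide. The lower level of Nr1h4 in CCl4 livers was thus not accompanied by a called change of its target Nr0b2.

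Cyp7a1 (ENSMUSG00000028240.2, chr4:6265612-6275633, − strand), the rate-limiting enzyme of the classical route, differed most. Its level was 271 and 481 CPM in NTC-Veh livers, 155 and 407 CPM in sgBap1-Veh livers, 2.98, 3.89 and 0.599 CPM in NTC-CCl4 livers and 1.00, 0.377 and 0.935 CPM in sgBap1-CCl4 livers. The 2 sets were far apart, and the CCl4 livers still held 22 to 207 counts each. Cyp7a1 fell 147-fold with the control guide (log2 fold change −7.20, SE 0.77, adjusted p = 0.000143) and 365-fold with the Bap1 guide (log2 fold change −8.51, SE 0.83, adjusted p = 8.48e-05). Between the guides, CCl4 livers overlapped, because NTC-CCl4 3 lay between the sgBap1-CCl4 livers. Their log2 difference was −1.73 (95% interval −3.49 to 0.02) with an unadjusted p = 0.0525 and an adjusted p = 0.362, and without sgBap1-CCl4 2 it was −1.39 (adjusted p = 0.668). The difference after CCl4 did not differ detectably between the guides (interaction −1.31, 95% interval −3.69 to 1.07, adjusted p = 0.743).

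Cyp8b1 (ENSMUSG00000050445.4, chr9:121914356-121916305, − strand), which adds the 12 alpha-hydroxyl group of cholic acid, varied most between livers of the same group. Its level was 211 and 297 CPM in NTC-Veh livers, 19.3 and 334 CPM in sgBap1-Veh livers, 9.15, 31.1 and 1.67 CPM in NTC-CCl4 livers and 2.57, 1.42 and 16.7 CPM in sgBap1-CCl4 livers. The liver sgBap1-Veh 1 lay 17.3-fold below the other liver of its group and within the range of the NTC-CCl4 livers. The highest liver of a group was 18.6-fold above the lowest in NTC-CCl4 and 11.7-fold in sgBap1-CCl4, whereas this ratio was at most 6.5 for Cyp7a1, 1.87 for Nr0b2, 1.82 for Nr1h4 and 1.75 for each of the other 6 genes. Cyp8b1 fell 25.9-fold with the Bap1 guide (log2 fold change −4.69, SE 1.58, adjusted p = 0.0360). With the control guide the log2 difference was −4.17 (SE 1.54, 95% interval −7.76 to −0.59), which missed the threshold (adjusted p = 0.0518). Neither call was firm. Without sgBap1-Veh 2 the Bap1 guide value was −1.50 (adjusted p = 0.475), and without NTC-CCl4 2 the control guide value was −5.54 (adjusted p = 0.0417). The interval between the guides ran from −4.23 to 3.18 in vehicle and from −4.25 to 2.15 in CCl4 livers, so that even large differences were not detectable for this gene.

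In 3 of the 4 groups the liver with the highest Nr0b2 level had the lowest Cyp7a1 and Cyp8b1 levels of its group. This was NTC-Veh 1 (Nr0b2 11.9, Cyp7a1 271, Cyp8b1 211 CPM), sgBap1-Veh 1 (13.2, 155 and 19.3 CPM) and NTC-CCl4 3 (19.3, 0.599 and 1.67 CPM). In sgBap1-CCl4 the order was another, since liver 1 was highest for both Nr0b2 (12.2 CPM) and Cyp7a1 (1.00 CPM). Liver 2, the liver with fat cell genes, was lowest for Nr0b2 (7.29 CPM), Cyp7a1 (0.377 CPM) and Cyp8b1 (1.42 CPM) alike. With 2 or 3 livers per group this is a description without a test.

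**Figure D2:**
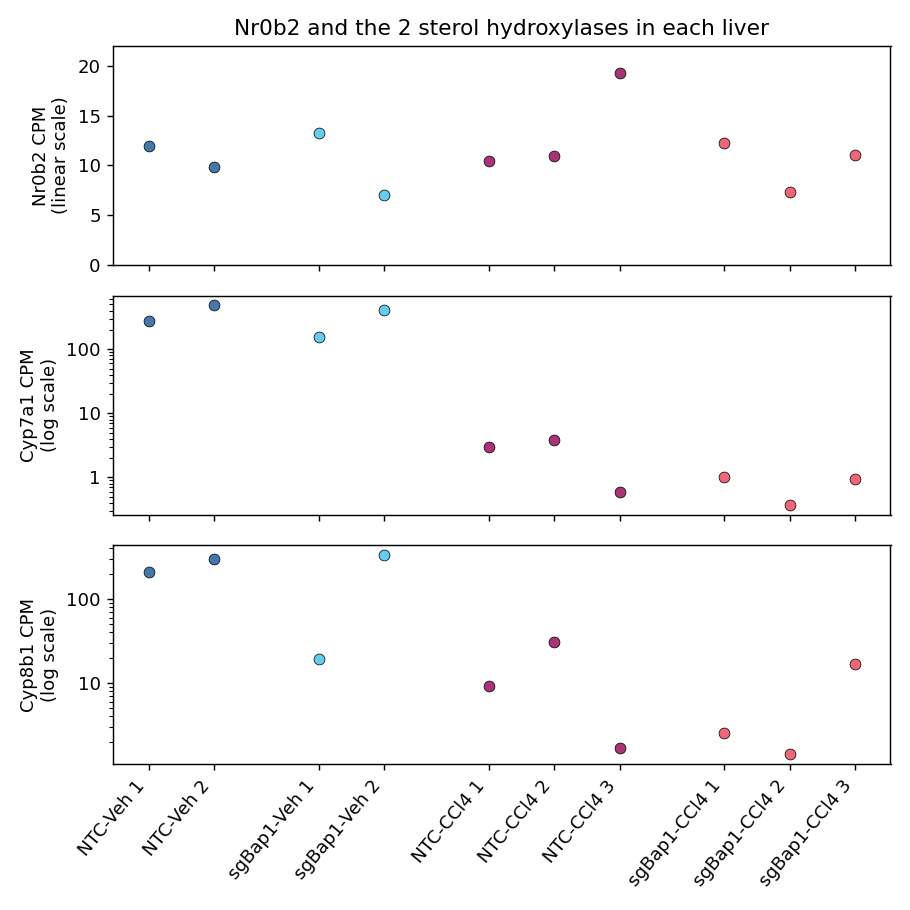
Level of Nr0b2 (CPM, linear scale) and of Cyp7a1 and Cyp8b1 (CPM, log scale) in each of the 10 livers (points, coloured by group). NTC-Veh 1, sgBap1-Veh 1 and NTC-CCl4 3 are the highest of their group for Nr0b2 and the lowest for both hydroxylases, whereas sgBap1-CCl4 2 is the lowest for all 3.

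Of the alternative route, Cyp27a1 (ENSMUSG00000026170.6, chr1:74713574-74737892, + strand) encodes the mitochondrial sterol 27-hydroxylase. Its level was 571 and 603 CPM in NTC-Veh livers, 596 and 606 CPM in sgBap1-Veh livers, 114, 92.0 and 125 CPM in NTC-CCl4 livers and 96.0, 72.2 and 126 CPM in sgBap1-CCl4 livers. The vehicle livers lay close together, and all were above all CCl4 livers. It fell 5.32-fold with the control guide (log2 fold change −2.41, SE 0.21, adjusted p = 8.73e-06) and 6.12-fold with the Bap1 guide (log2 fold change −2.61, SE 0.21, adjusted p = 5.33e-06).

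Cyp7b1 (ENSMUSG00000039519.6, chr3:18071950-18243338, − strand) encodes the oxysterol 7 alpha-hydroxylase of the same route, and a small gene annotated as Gm23686 lies within it on the same strand. The level was 22.9 and 18.4 CPM in NTC-Veh livers, 26.5 and 26.9 CPM in sgBap1-Veh livers, 3.84, 4.73 and 3.49 CPM in NTC-CCl4 livers and 2.66, 2.64 and 3.63 CPM in sgBap1-CCl4 livers. Both sgBap1-Veh livers were above both NTC-Veh livers, while the CCl4 groups overlapped. Cyp7b1 fell 5.12-fold with the control guide (log2 fold change −2.35, SE 0.17, adjusted p = 3.67e-06) and 9.0-fold with the Bap1 guide (log2 fold change −3.17, SE 0.17, adjusted p = 9.11e-07). Among the 10 genes it had the smallest interaction p, with −0.82 on the log2 scale (95% interval −1.36 to −0.27, unadjusted p = 0.00743). After adjustment over all tested genes the interaction was not called (adjusted p = 0.243), and the adjusted p was 0.0855 to 0.4 over the other settings that kept all livers.

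The side chain is shortened in peroxisomes, where the racemase Amacr (ENSMUSG00000022244.7, chr15:10981756-10996626, + strand) prepares the substrate of the branched-chain oxidase Acox2 (ENSMUSG00000021751.13, chr14:8225511-8259353, − strand). The Amacr level was 162 and 158 CPM in NTC-Veh livers, 136 and 147 CPM in sgBap1-Veh livers, 67.3, 72.2 and 64.0 CPM in NTC-CCl4 livers and 65.8, 58.4 and 65.4 CPM in sgBap1-CCl4 livers. Amacr fell 2.36-fold with the control guide (log2 fold change −1.24, SE 0.09, adjusted p = 3.62e-06) and 2.24-fold with the Bap1 guide (log2 fold change −1.16, SE 0.09, adjusted p = 4.27e-06). It was the smallest of the called falls.

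The Acox2 level was 206 and 152 CPM in NTC-Veh livers, 156 and 165 CPM in sgBap1-Veh livers, 141, 180 and 138 CPM in NTC-CCl4 livers and 148, 126 and 148 CPM in sgBap1-CCl4 livers. NTC-CCl4 2 was above 3 of the 4 vehicle livers, whereas every sgBap1-CCl4 liver was below every vehicle liver. The log2 difference after CCl4 was −0.23 (95% interval −0.57 to 0.11, adjusted p = 0.235) with the control guide and −0.19 (95% interval −0.53 to 0.16, adjusted p = 0.322) with the Bap1 guide, and its sign turned when libraries were scaled by their size alone (0.25 and 0.29). Neighbouring steps of the pathway, the racemase and the oxidase, thus had intervals after CCl4 that did not overlap.

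Conjugation opens with the bile acid CoA ligase Slc27a5 (ENSMUSG00000030382.15, chr7:12988346-12998192, − strand) and ends with the amino acid transferase Baat (ENSMUSG00000039653.9, chr4:49489422-49506557, − strand). The Slc27a5 level was 1201 and 1129 CPM in NTC-Veh livers, 1419 and 1408 CPM in sgBap1-Veh livers, 174, 145 and 183 CPM in NTC-CCl4 livers and 170.1, 138 and 224 CPM in sgBap1-CCl4 livers. It fell 6.97-fold with the control guide (log2 fold change −2.80, SE 0.19, adjusted p = 2.56e-06) and 7.97-fold with the Bap1 guide (log2 fold change −2.99, SE 0.19, adjusted p = 1.63e-06). Both sgBap1-Veh livers were above both NTC-Veh livers, but the log2 difference of 0.28 was not called (95% interval −0.17 to 0.73, adjusted p = 0.668).

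The Baat level was 184 and 204 CPM in NTC-Veh livers, 198 and 247 CPM in sgBap1-Veh livers, 56.3, 49.3 and 54.2 CPM in NTC-CCl4 livers and 49.96, 49.5 and 57.5 CPM in sgBap1-CCl4 livers. The CCl4 livers lay within a narrow range whatever the guide. Baat fell 3.64-fold with the control guide (log2 fold change −1.86, SE 0.12, adjusted p = 2.14e-06) and 4.26-fold with the Bap1 guide (log2 fold change −2.09, SE 0.12, adjusted p = 9.88e-07).

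**Figure D3:**
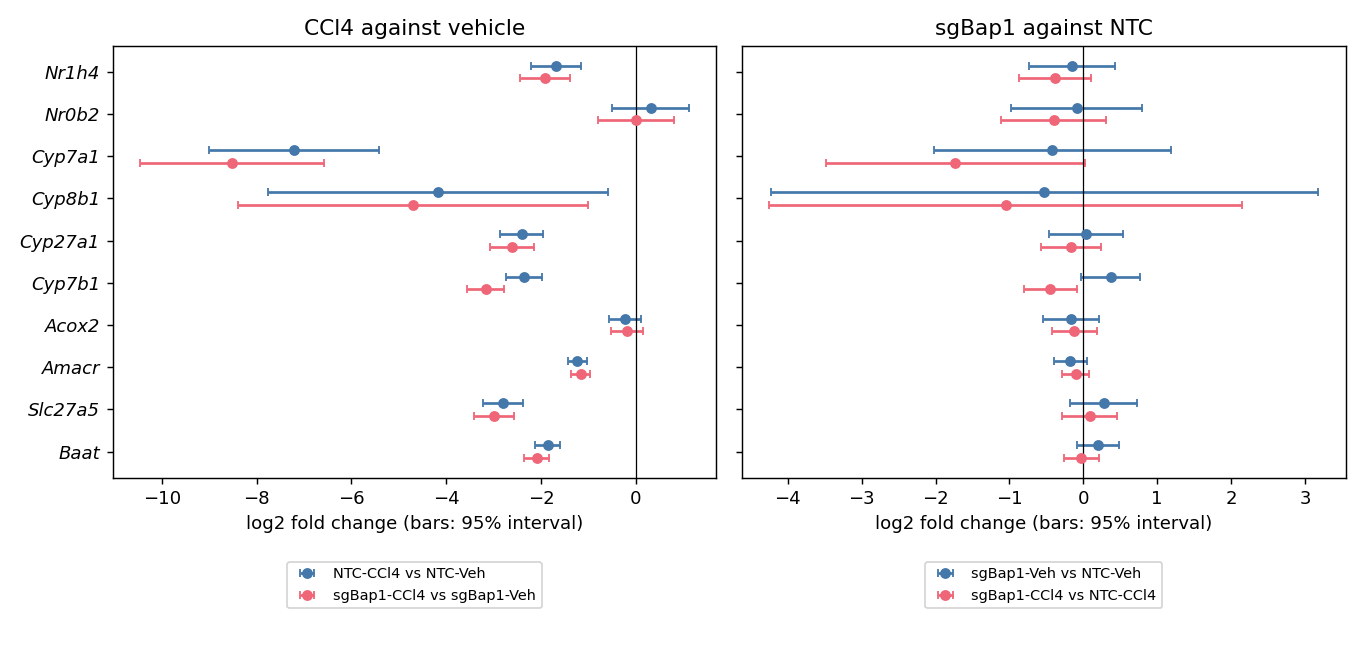
Log2 fold change of the 10 genes (points) with 95% intervals (bars) after CCl4 with each guide (left) and between the guides in vehicle and CCl4 livers (right, narrower axis). After CCl4 the Cyp7a1 points lie at −7.20 and −8.51 and those of Nr0b2 and Acox2 have intervals that include 0, and between the guides 19 of 20 intervals include 0.

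None of the 10 genes was called between the guides. With vehicle 0 of 10 genes were called, where 0.406% of all tested genes were called, and with CCl4 0 of 10, where 0.329% were called. At an unadjusted p under 0.05 the counts were 0 and 1 of the 10, and DESeq2's Wald test and limma-voom also called 0 in each comparison. The gene with an unadjusted p under 0.05 was Cyp7b1 in CCl4 livers (log2 difference −0.44, 95% interval −0.81 to −0.08, adjusted p = 0.267). In vehicle livers the groups did not overlap for 3 of the 10 genes, namely Cyp7b1 and Slc27a5, which were higher with the Bap1 guide, and Amacr, which was lower, against 40.9% of all tested genes. In CCl4 livers the guides overlapped for every one of the 10, against 20.3% of all tested genes that did not overlap. The interaction called 0 of the 10 and 0% of all tested genes, with 1 of the 10 (Cyp7b1) and 1764 of all genes at an unadjusted p under 0.05, and DESeq2's Wald test called 0 of the 10 and 424 of all genes. The intervals were narrow for Amacr (−0.40 to 0.05 in vehicle, −0.28 to 0.08 in CCl4 livers) and Baat (−0.09 to 0.49 and −0.26 to 0.21), and wide for Cyp7a1 and Cyp8b1.

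Levels were also compared between the 10 genes, as CPM per kilobase of exons. In NTC-Veh livers (mean ± SD, n = 2) the order was Slc27a5 (478 ± 20.9), Cyp27a1 (270.2 ± 10.3), Cyp8b1 (130.3 ± 31.1), Baat (99.8 ± 7.14), Cyp7a1 (90.1 ± 35.5), Nr1h4 (69.7 ± 2.90), Amacr (61.4 ± 1.23), Acox2 (48.4 ± 10.3), Nr0b2 (9.60 ± 1.32) and Cyp7b1 (9.53 ± 1.45). Of neighbours in this order, Baat and Cyp7a1, Cyp7a1 and Nr1h4, and Nr0b2 and Cyp7b1 overlapped between livers. In NTC-CCl4 livers (n = 3) the means of Slc27a5 (68.6 ± 8.15) and Cyp27a1 (50.8 ± 7.77) were still the highest, but Acox2 (41.3 ± 6.40) came next. The mean of Cyp7a1 (0.597 ± 0.407) was the lowest of the 10, below Cyp7b1 (1.86 ± 0.30). Between livers, Acox2 (37.1 to 48.6) overlapped with Cyp27a1 (42.3 to 57.6), and Cyp7a1 (0.143 to 0.932) with Cyp8b1 (0.854 to 15.9). Nr0b2 (11.9 ± 4.39) stood above Cyp8b1 (7.16 ± 7.83), whose livers overlapped with it.

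Other genes of the pathway were counted from lists. Of 13 further enzymes of bile acid and oxysterol synthesis, 11 were called lower and 1 higher after CCl4 with the control guide, and 10 lower and 1 higher with the Bap1 guide. Of all tested genes, 26.6% and 28.0% were called lower and 27.4% and 29.0% higher in these comparisons, which is the background of every list and marker count after CCl4 given here. Their median log2 fold change was −1.15 and −1.35. The 5 beta-reductase Akr1d1, which acts in both routes, was at 232 and 317 CPM in NTC-Veh livers, 314 and 290 CPM in sgBap1-Veh livers, 21.5, 20.9 and 20.3 CPM in NTC-CCl4 livers and 11.4, 8.47 and 7.69 CPM in sgBap1-CCl4 livers. Akr1d1 was the only gene of the 4 lists called between the guides by this test, and other settings that kept all livers called 1 to 4 of the 13 in CCl4 and 0 to 2 in vehicle livers. Library size alone and DESeq2's Wald test each also called 1 gene that FXR induces, Osgin1, between the guides in CCl4 livers. Akr1d1 fell with CCl4 by 3.71 (adjusted p = 6.64e-07) and 5.04 (adjusted p = 1.66e-07) on the log2 scale. Its level in CCl4 livers with the Bap1 guide was 2.27-fold below that with the control guide (log2 fold change −1.18, SE 0.16, adjusted p = 0.0210). This call was lost without NTC-CCl4 1, 2 or 3 (adjusted p = 0.1, 0.063 and 0.0694) or sgBap1-CCl4 2 (adjusted p = 0.0554), and the interaction was −1.32 (adjusted p = 0.0777, or 5.73e-05 by DESeq2's Wald test). The gene called higher was Ch25h, the cholesterol 25-hydroxylase of macrophages among other cells, with 0 to 2 counts in vehicle livers, 3.88 to 5.67 CPM in NTC-CCl4 livers and 7.14 to 9.57 CPM in sgBap1-CCl4 livers (adjusted p = 1.16e-06 and 4.14e-07).

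Of 3 genes of taurine supply, Cdo1, the cysteine dioxygenase that opens taurine synthesis, fell by 2.55 (adjusted p = 1.17e-05) and 2.26 (adjusted p = 2.16e-05) on the log2 scale, and Csad and Slc6a6 were not called. Of 14 regulators, 12 could be tested, and 8 were called lower and 1 higher in each CCl4 comparison, with a median log2 fold change of −0.65 and −0.60. Nr1i3, the xenobiotic receptor CAR, fell by 2.45 (adjusted p = 5.53e-05) and 2.89 (adjusted p = 2.1e-05) on the log2 scale. The vitamin D receptor Vdr was called higher from a very low level, with 0 counts in NTC-Veh livers, 2 and 7 counts in sgBap1-Veh livers and 0.507 to 1.2 CPM in the CCl4 livers (adjusted p = 0.00118 and 0.00924, and 0.117 for the latter without sgBap1-Veh 1). Fgf15, the intestinal hormone through which FXR also acts on the liver, had 0 counts in every liver, where 3 counts correspond to at most 0.112 CPM. Of 7 genes other than Nr0b2 that FXR induces, 6 could be tested, and 4 (Abcb11, Abcb4, Abcc2 and Pltp) were called lower in each CCl4 comparison. Osgin1 was called higher with the control guide (log2 fold change 1.29, adjusted p = 0.00183) and was not called with the Bap1 guide (0.38, adjusted p = 0.206), while its interaction was not called (adjusted p = 0.387). In CCl4 livers its log2 difference between the guides was −1.19, with every sgBap1-CCl4 liver below every NTC-CCl4 liver, and was not called (adjusted p = 0.0608, against 0.0482 with library size alone and 8.39e-06 by DESeq2's Wald test). Abcb4, Abcc2, Csad, Slc6a6 and Osgin1 were named after their values were seen. The bile salt export pump Abcb11 fell by 1.75 (adjusted p = 0.000287) and 2.17 (adjusted p = 7.06e-05), and the phospholipid transfer protein gene Pltp by 1.96 (adjusted p = 0.000362) and 2.72 (adjusted p = 5.29e-05), on the log2 scale.

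**Figure D4:**
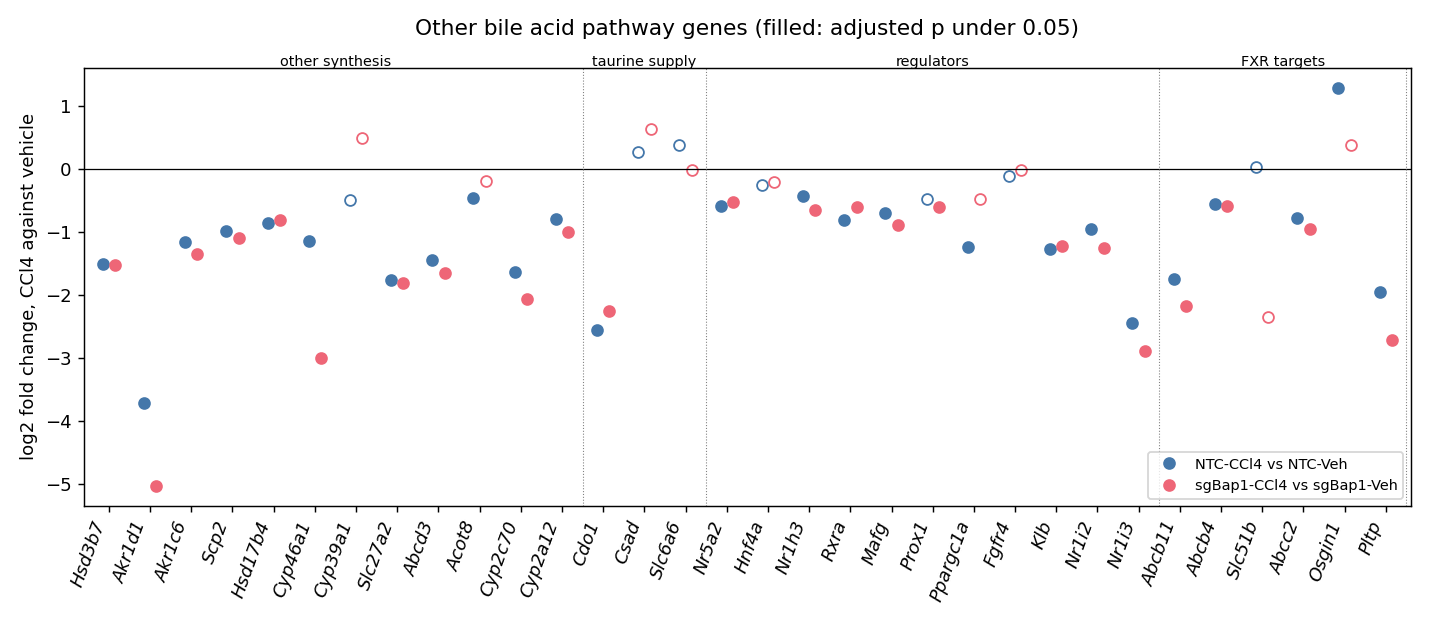
Log2 fold change after CCl4 (y axis) of the tested genes of 4 lists, with the control guide and with the Bap1 guide (filled points: adjusted p under 0.05, open points: not called). Ch25h and Vdr are left out because a vehicle group had at most 3 counts in each liver. Most filled points lie below 0, with Akr1d1 lowest at −3.71 and −5.04.

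Other cell and zone markers moved with CCl4 too. All 7 pericentral markers were called lower with the control guide and 6 of 7 with the Bap1 guide, and their summed level was 10793 to 14378 CPM in vehicle livers and 561 to 974 CPM in CCl4 livers. All 7 periportal markers were called lower in each comparison (10974 to 16320 CPM against 3520 to 5276 CPM). Of 6 general hepatocyte markers, 4 were called lower with the control guide and 1 with the Bap1 guide, with a median log2 fold change of −0.71 and −0.49, against −2.11 and −2.35 for the 10 genes. Immune cell markers summed to 132 to 189 CPM in NTC-Veh livers, 269 to 357 CPM in sgBap1-Veh livers and 568 to 752 CPM in CCl4 livers. After CCl4, 4 of 8 were called higher with the control guide, and 3 were called higher and 1 lower with the Bap1 guide. Between the guides in vehicle livers, 1 of the 8 was called higher, where 0.276% of all tested genes were called higher. The log2 fold change of all 8 was positive there, with a median of 1.06, while the median of all tested genes was 0.02. Cholangiocyte markers summed to 43.2 to 51.4 CPM in vehicle and 192 to 370 CPM in CCl4 livers (2 of 5 called higher in each comparison). Spp1 made up most of this sum, with 37.1 to 43.6 CPM in vehicle and 180 to 352 CPM in CCl4 livers. Sox9 was at 1.99 to 2.58 CPM and 8.44 to 10.9 CPM, while Krt19, Krt7 and Epcam were at 0.436 to 3.92 CPM over all livers. Stellate and endothelial markers summed to 120 to 164 CPM in vehicle and 242 to 319 CPM in CCl4 livers other than sgBap1-CCl4 2, which was at 628 CPM. Of these 6, 4 were called higher with the control guide, and 3 were called higher and 1 lower with the Bap1 guide. The part of cell composition in the values of the 10 genes was not tested.

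Clock genes are given because Cyp7a1 is under daily control, and the hour of harvest is not given in the sources used here. Dbp, a clock output factor that binds the Cyp7a1 promoter, was at 123 to 202 CPM in vehicle and 12.2 to 37.3 CPM in CCl4 livers, and 4 of 6 clock genes were called lower with the control guide and 3 with the Bap1 guide. Arntl, which encodes a core clock factor, was called higher in each comparison (log2 fold change 1.75, adjusted p = 0.000685, and 2.46, adjusted p = 0.000138). Between the guides, Per2 was called higher in sgBap1-Veh livers (67.8 and 74.4 CPM against 34.9 and 37.2 CPM, log2 fold change 0.98, adjusted p = 0.0208), a call lost under settings that include leaving out any 1 of the 4 vehicle livers. Per1 was called higher in sgBap1-CCl4 livers (66.1 to 78.3 CPM against 29.2 to 34.4 CPM, log2 fold change 1.17, adjusted p = 0.00287). Dbp, Arntl, Per1 and Per2 were chosen after their values were seen, and their part in the results was not tested.

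The genes whose log2 CPM was most like that of 4 of the 10 genes over the 10 livers were sought among the 12018 genes whose mean count reached 100. For Nr1h4 they were Cyp2b13 (Pearson r = 0.996), Gcsh (0.995) and Oxsm (0.995), and for Cyp7a1 they were Mpst (0.997), Mpv17l (0.996) and Adck1 (0.994). For Cyp8b1 they were Pigp (0.996), Cd81 (0.985) and Commd3 (0.981). For Nr0b2 they were Thpo (0.827), Rhou (0.781) and Afdn (0.767), so that no gene followed Nr0b2 as closely as the other 3 were followed. The points share the CCl4 and vehicle groups, and these values are a description.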

How the data were processed

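Bulk RNA-seq of 10 mouse livers was used. The authors made stranded mRNA libraries, aligned reads with STAR 2.7.6a to mm10 (GRCm38) and estimated counts with Salmon 1.4.0 on GENCODE vM25; the library type given to Salmon is not given in the sources used here. The deposited table holds these expected counts (estimated counts) per gene symbol without normalization, and 9.22% of values are not whole. All 10 columns were matched to samples by the library name in each sample's description. Group and replicate number were read from the sample titles.

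Rounded counts went into edgeR 4.0.16 under R 4.3.3 (filterByExpr, TMM, glmQLFit with robust = TRUE, glmQLFTest), in 1 model of the 4 groups over all 10 livers. All p-values are two-sided, were adjusted by Benjamini-Hochberg across the 17015 genes within a comparison, and were called under 0.05. Intervals (95%) come from the same fit and are not adjusted. A self-test on simulated counts was run. The smallest library held 33047904 counts, where 3 counts correspond to 0.112 CPM. Separate mice are assumed from the replicate numbers.

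The 10 genes, the other lists and the named genes were chosen with earlier results of these data known. Named from the lists are genes called between the guides or in the interaction, and the 2 with the largest log2 fold change among those called with the control guide after CCl4. Alternatives were DESeq2 size factors, library size alone, 2 other filters, DESeq2's Wald test (DESeq2 1.42.0), limma-voom (limma 3.58.1), the quasi-likelihood method of edgeR 3, the replicate number as a block, only the 2 groups compared, and each liver left out. Positions come from GENCODE vM21 and promoters from RefSeq. None of the 10 genes shared a stretch of 50 exon bases with another gene. Samples were treated as unpaired. The 13 correlations of same-numbered livers' deviations from their group means ran from −0.149 to 0.102. With so few livers per group, these values cannot settle whether replicate numbers pair the samples. No batch is named in the labels. Spatial data and the human cohort were not analysed here.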

Additional observations from a re-analysis of the deposited data

Results flagged for a closer look

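For Cyp46a1, a cholesterol 24-hydroxylase, every sgBap1-Veh liver was above every NTC-Veh liver, whereas every sgBap1-CCl4 liver was below every NTC-CCl4 liver. Its level was 2.99 and 2.41 CPM in NTC-Veh livers, 5.33 and 5.20 CPM in sgBap1-Veh livers, 1.04, 1.48 and 1.09 CPM in NTC-CCl4 livers and 0.698, 0.633 and 0.638 CPM in sgBap1-CCl4 livers. The interaction was −1.85 on the log2 scale (adjusted p = 0.0694 by edgeR's quasi-likelihood test, 0.0474 with no filter beyond 1 count and 0.000253 by DESeq2's Wald test).

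For Ppargc1a, a coactivator, every sgBap1-Veh liver was below every NTC-Veh liver (15.9 and 9.17 CPM against 19.4 and 17.0 CPM). Every sgBap1-CCl4 liver was above every NTC-CCl4 liver (8.47 to 10.0 CPM against 7.16 to 8.08 CPM), with an interaction of 0.76 (adjusted p = 0.363). Both genes were chosen from the listed genes after their values were seen, and neither interaction passed the threshold by edgeR's quasi-likelihood test. Between the guides, groups did not overlap, in either direction, for 40.9% of all tested genes in vehicle and 20.3% in CCl4 livers. Such opposite directions can thus also arise without an effect of the guide, and how often they would was not tested.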

How the results depend on the processing

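Of the 10 genes, 7 or 8 were called after CCl4 with either guide in all alternatives, and 0 between the guides and in the interaction. Cyp8b1 alone changed its call. With the Bap1 guide it was lost with no filter beyond 1 count (−4.65, adjusted p = 0.093), with the replicate block (−4.43, adjusted p = 0.152) and without NTC-Veh 1, NTC-Veh 2, sgBap1-Veh 2, NTC-CCl4 1, sgBap1-CCl4 1 or sgBap1-CCl4 2 (adjusted p = 0.0534, 0.0538, 0.475, 0.0502, 0.0893 and 0.125). With the control guide it was gained by DESeq2's Wald test (−4.19, adjusted p = 0.00785), limma-voom (−4.83, adjusted p = 0.0162) and without sgBap1-Veh 1, sgBap1-Veh 2, NTC-CCl4 2 or sgBap1-CCl4 3 (adjusted p = 0.0379, 0.0384, 0.0417 and 0.0447). The cause was not tested. No other call of the 10 genes changed, under the replicate block included.

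Signs turned only where nothing was called. Library size alone, which shifts the median of all genes after CCl4 to 0.50 and 0.52 (80.5% and 78.3% of calls higher, against 50.8% and 50.9%), turned Acox2 (0.251 with the control and 0.287 with the Bap1 guide) and Nr0b2 (0.459 with the Bap1 guide, 0.024 with no filter). For Cyp8b1 the interaction was 0.343 by limma-voom and 0.13 with the replicate block. With single livers left out, log2 values ran as follows. Between the guides in vehicle livers, Nr1h4 ran from −0.372 to 0.033, Nr0b2 from −0.623 to 0.282, Cyp7a1 from −1.282 to 0.11, Cyp8b1 from −3.718 to 0.389, Cyp27a1 from −0.008 to 0.073 and Acox2 from −0.365 to 0.071. Between the guides in CCl4 livers, Cyp8b1 ran from −2.824 to 0.313, Cyp27a1 from −0.401 to 0.01, Acox2 from −0.191 to 0.014, Slc27a5 from −0.128 to 0.238 and Baat from −0.108 to 0.016. After CCl4 with the control guide, Nr0b2 ran from −0.025 to 0.47 and Acox2 from −0.43 to 0.006, and with the Bap1 guide Nr0b2 ran from −0.372 to 0.533. In the interaction, Nr0b2 ran from −0.684 to 0.221, Cyp8b1 from −2.295 to 2.669 and Acox2 from −0.192 to 0.244.

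Counts over all genes between the guides moved more. In vehicle livers 69 genes became 32 with library size alone, 562 by DESeq2's Wald test, 25 by limma-voom, 1 with the replicate block, 35 with only the 2 groups and 0 to 150 without single livers (0 without NTC-Veh 2, 1 without sgBap1-Veh 1, 8 without sgBap1-Veh 2, 150 without sgBap1-CCl4 2, and 22 to 34 without NTC-Veh 1, NTC-CCl4 1 or 2, or sgBap1-CCl4 1 or 3). In CCl4 livers 56 became 94 with no filter, 509 by the Wald test, 24 with the replicate block, 29 with only the 2 groups and 1 to 71 without single livers (1 without NTC-CCl4 1, 2 each without NTC-CCl4 3 or sgBap1-CCl4 1, 16 without NTC-CCl4 2, 24 without sgBap1-CCl4 2, and 31 without either NTC-Veh liver). The interaction's 0 became 2 with library size alone, 34 with no filter, 424 by the Wald test and 0 to 7 without single livers (7 without sgBap1-CCl4 2, 1 without sgBap1-Veh 1 or sgBap1-CCl4 3). The Bap1 call was lost with the replicate block (adjusted p = 0.0744 in vehicle and 0.0552 in CCl4 livers) and with library size alone (0.051 and 0.0646), in vehicle livers without any 1 vehicle liver (0.0577 to 0.12), and in CCl4 livers with only the 2 groups (0.0715) or without NTC-Veh 1 or 2, NTC-CCl4 1, 2 or 3 or sgBap1-CCl4 1 (0.0545 to 0.147). The Per2 call in vehicle livers was also lost with the replicate block (0.98, adjusted p = 0.0744). The fit of only 2 groups was not run for the interaction. Where a vehicle group kept 1 liver, that liver was assumed to vary like the others.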
